A study of Mus musculus with 12 samples.

Results

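Mouse induced pluripotent stem cells (iPSC), which the series text calls established, were compared with Stage2 cells, which the series text places 4 days after day 6 of the reprogramming of mouse embryonic fibroblasts (MEF). The members were chosen by title: the 3 libraries titled iPSC and the 3 titled Stage2, which are 6 of the 12 libraries of the series. The other 6 were 3 Stage1 libraries, of day 6, and 3 MEF libraries, and they serve here only as reference levels. RNA-seq counts of whole reads per gene were deposited for each library. All 12 libraries carried the strain label of a mixed C57BL/6 and 129 background. According to the series text, sorting on Oct4-GFP, in which fluorescence reports activity of Pou5f1 (Oct4), was applied to all cells but MEF, so both groups compared here were selected for reporter activity. The sources used here do not give the factors and vectors, the culture medium, the presence of feeder cells or the number of iPSC clones. They also do not give whether introduced copies add to the reads of Klf4, Myc, Pou5f1 and Sox2, or whether replicates came from separate cultures or animals. The p-values below therefore measure only the spread between these libraries.

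The labels of the 6 libraries contradicted each other. The stage given among the characteristics was shifted against the title in 12 of 12 libraries: it named the iPSC-titled libraries Stage 2 and the Stage2-titled libraries Stage 1. The marker label followed the shifted stage, since it called the MEF-titled libraries sorted and the Stage1-titled libraries unsorted. Markers placed the MEF title with the fibroblasts: Pou5f1 averaged 2.05 ± 1.23 CPM (counts per 1e+06 gene counts; mean ± SD, n = 3) in the MEF-titled libraries and at least 517 ± 63.2 CPM in the other groups, while Col1a1 averaged 2493 ± 528 CPM in the MEF-titled libraries. No marker of this kind separates Stage2 from iPSC, and these names rest on the titles.

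Pluripotent cells exist in graded states. Naive cells resemble the epiblast of the blastocyst and express factors such as Klf2, Klf4, Klf5, Esrrb, Tfcp2l1 and Prdm14. Formative and primed cells resemble the later, implanted epiblast and express Fgf5, Otx2, Zic2 and Lefty2, while Pou5f1 and Sox2 are shared by all of them. FGF signalling through ERK and Nodal signalling move cells from the naive towards the primed state, LIF acting through Stat3 holds them in the naive state, and Wnt signalling relieves repression of naive genes by Tcf7l1. A small fraction of naive cultures passes through a state resembling the embryo of the first cleavages, marked by the Zscan4 cluster.

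Gene counts ranged from 9257487 to 13528952 per library in Stage2 and from 10994289 to 14074413 in iPSC, so 3 counts, the limit that a count of 0 allows, correspond to between 0.213 and 0.324 CPM per library. Such limits and intervals cover counting error only. The first principal component of the 6 libraries held 61.2% of the variance and separated the 2 groups. Spearman correlations across 13725 genes (not independent replicates) were 0.986 to 0.991 within groups and 0.959 to 0.973 between them. Reads outside annotated genes made up 49.9% ± 3.16 in Stage2 and 38.8% ± 4.87 in iPSC (SD, n = 3), with no overlap between the groups (exact two-sided permutation p = 0.1, the smallest that 3 against 3 libraries allow). The total for this share was reads in genes, outside genes or ambiguous between genes. Reads not aligned, not aligned uniquely or of low alignment quality were left out of it.

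Of 13725 genes tested, 2301 were higher in iPSC (16.8%) and 2641 were lower (19.2%), together 36.0%. Differences of at least 2-fold in called genes were found for 490 genes higher in iPSC (3.57%) and 709 lower (5.17%). A gene was called when edgeR's quasi-likelihood test on these 6 libraries gave a Benjamini-Hochberg adjusted p below 0.05. In 48.3% of all genes tested the libraries of the groups did not overlap. Absence of overlap in a gene named below is therefore no further evidence. The 15 largest changes named in each direction, called leading below, were chosen among genes without overlap. Counts over the lists below, from the fit of 6 libraries, stand beside the shares of 16.8% higher and 19.2% lower. A fit of all 12 libraries, which takes the spread of each gene from all 4 groups, tested 14762 genes. It called 1357 of these higher and 1313 lower, and 2615 of its calls were shared with the fit of 6 libraries. List counts from the fit of all 12 libraries stand beside these smaller numbers, not beside 16.8% and 19.2%. Log2 fold changes below are iPSC over Stage2 with their standard error (SE), from the fit of 6 libraries. In these bulk samples, fewer cells expressing a gene and less RNA of it per cell cannot be told apart.

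The difference between the groups also moved with gene length. Among 12907 genes with a summed exon length (94% of those tested), the shortest quartile, up to 2087 bases, had 30.2% of genes higher in iPSC and 8.24% lower. The longest quartile, from 5049 bases, had 6.92% higher and 35.1% lower. Across these genes, which share the libraries, the log2 fold change and log10 length had a Pearson correlation of -0.269 (Spearman -0.339). When the length trend of each library was taken out as an offset, 2024 genes were higher and 2022 lower, and 3341 of the 4942 calls (67.6%) were shared, 3340 of them in the same direction. Counts after that offset are given beside several lists. The part of length, or of the reads outside genes, in any single result was not tested.

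**Figure D1:**
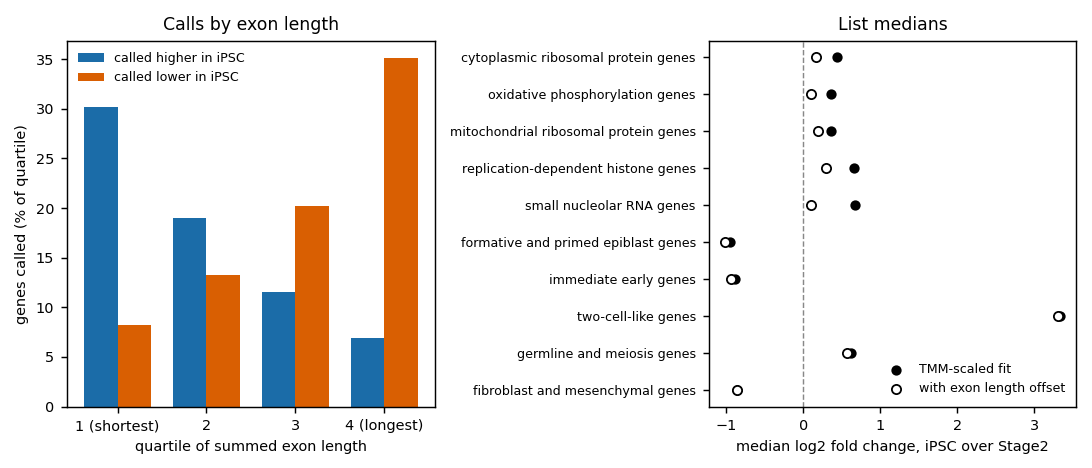
Left, share of genes called higher (blue) or lower (orange) in iPSC than in Stage2 within quartiles of summed exon length, from shortest to longest. Right, median log2 fold change of 10 gene lists in the fit of 6 libraries (filled) and with the exon length offset (open). The share called higher falls from 30.2% to 6.92% from the shortest to the longest quartile, and the median of the ribosomal protein list moves from 0.44 to 0.16 while that of the epiblast list lies at -0.95 and -1.01.

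**Figure D2:**
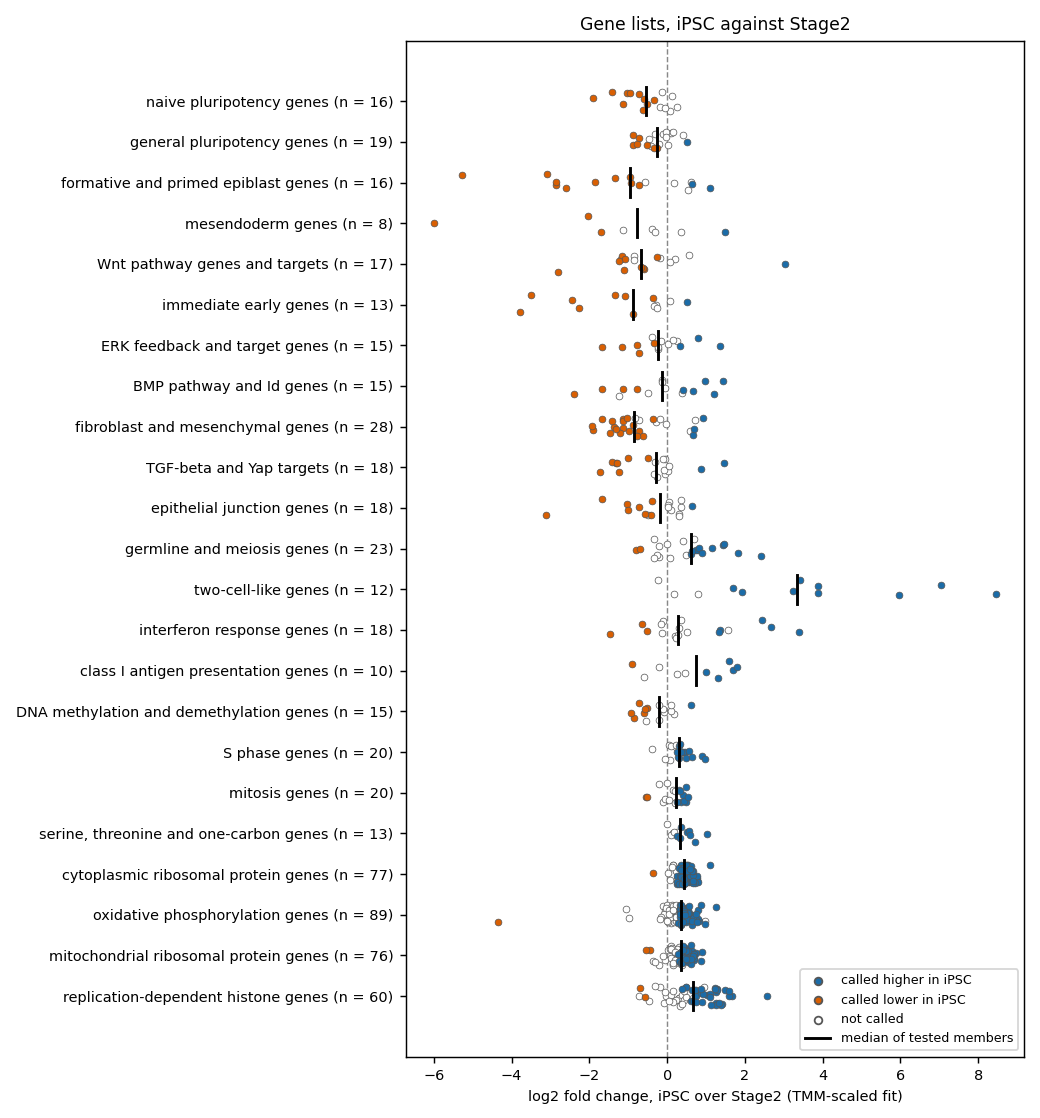
Log2 fold change (x axis, iPSC over Stage2) of each tested member of 23 gene lists (rows, n tested members); filled blue and orange points were called higher and lower in iPSC, open points were not called, and bars mark list medians. Epiblast, naive, immediate early and fibroblast genes lie mostly left of 0, with medians of -0.95, -0.55, -0.88 and -0.86, and two-cell-like genes lie right of it, with a median of 3.33.

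Pou5f1 and Nanog, at the core of the pluripotency network, were not called. Pou5f1 (chromosome 17, 35506032 to 35510777, mm10), the reporter's own gene and a central pluripotency factor, stood at 729, 769 and 686 CPM in Stage2 and 776, 681 and 687 CPM in iPSC. The ranges overlapped, and the log2 fold change was 0.02 ± 0.09 (SE). Its sign turned negative with library totals as scaling, without Stage2 replicate 3 or iPSC replicate 1 and with the exon length offset, and no setting called it. Nanog, which stabilizes the pluripotent state, stood at 181, 201 and 166 CPM in Stage2 and 184, 154 and 154 CPM in iPSC with a log2 fold change of -0.11 ± 0.10, and was not called. Lin28a, an RNA-binding protein that blocks let-7 microRNA maturation, averaged 333 ± 14 CPM in Stage2 and 345 ± 19.6 CPM in iPSC and was not called either. Zfp42 (Rex1), a marker of naive cells, varied more within groups than between them: 159.6, 393 and 374 CPM in Stage2 and 172, 291 and 262 CPM in iPSC, with Stage2 replicate 1 and iPSC replicate 1 the lowest, and it was not called. Sox2, the partner of Pou5f1, was slightly lower in iPSC, at 881 ± 59.95 against 1097 ± 75.3 CPM, a log2 fold change of -0.27 ± 0.09 with Benjamini-Hochberg adjusted p = 0.0294 in edgeR. That call was lost without any 1 of Stage2 replicates 1, 2 and 3 or iPSC replicates 1 and 3 (edgeR adjusted p between 0.0536 and 0.129), in the fit of all 12 libraries (0.317) and with no filter on low counts (0.0745).

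Among 19 general pluripotency genes, 1 was higher in iPSC and 7 were lower, with a median log2 fold change of -0.27 against -0.0019 for all genes tested. The lower ones included Sall4, Fbxo15, Dnmt3l, Utf1, Fgf4 and Sox2. Utf1 was not called without Stage2 replicate 1 (edgeR adjusted p = 0.0586) or iPSC replicate 1 (0.074) or 3 (0.0679). Fgf4 was not called without Stage2 replicate 3 (edgeR adjusted p = 0.0889) or iPSC replicate 2 (0.0675), or in the fit of all 12 libraries (0.264). Sall4, a zinc finger factor needed for self-renewal (chromosome 2, 168748332 to 168767201), stood at 226, 202 and 220.0 CPM in Stage2 and 111, 111 and 117 CPM in iPSC. The groups did not overlap, and the replicates of each lay close together. Fbxo15, a target of Pou5f1 and Sox2, averaged 275 ± 13 CPM in Stage2 and 161 ± 6.12 CPM in iPSC. Dnmt3l, the cofactor of the de novo DNA methyltransferases, averaged 340.2 ± 45.1 CPM in Stage2 and 229.8 ± 27.1 CPM in iPSC. In edgeR's quasi-likelihood fit, Benjamini-Hochberg adjusted p was 2.77e-06 for Sall4, 1.43e-05 for Fbxo15 and 0.00154 for Dnmt3l. Dppa5a, an RNA-binding protein of early embryonic cells, was the 1 higher member, at 1009 ± 97.6 against 736 ± 91.5 CPM, a call lost with the exon length offset (edgeR adjusted p = 0.385) and in the fit of all 12 libraries (0.0816). Tdgf1 (Cripto), the coreceptor of Nodal, was among the most abundant at 2564 ± 421 CPM in Stage2 and 3282 ± 669.7 CPM in iPSC. It missed the threshold, but passed it as higher with no filter on low counts (edgeR adjusted p = 0.000124), with DESeq2 (adjusted p = 0.0157), and without Stage2 replicate 1 (edgeR adjusted p = 0.00508) or iPSC replicate 2 (0.0444).

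Naive pluripotency genes were mostly lower in iPSC. Of 16 tested, 10 were lower and 0 were higher, with a median of -0.55. The 10 were Klf2, Klf4, Klf5, Esrrb, Tfcp2l1, Tbx3, Nr0b1, Prdm14, Dppa3 and Tet2. Nr5a2, Tcl1, Gbx2, Pecam1, Nlrp4f and Jam2 were not called, with log2 fold changes of -0.18, 0.09, 0.11, -0.13, 0.26 and -0.05. Zfp42, counted with the general pluripotency genes, was not called either. The fit of all 12 libraries called 7 of the list lower. Klf5, a Kruppel-like transcription factor (chromosome 14, 99298691 to 99313412), stood at 193, 92.3 and 92.6 CPM in Stage2 and 28, 37 and 32.3 CPM in iPSC, with Stage2 replicate 1 far above the other libraries. Its log2 fold change of -1.90 ± 0.39 had edgeR adjusted p = 0.0203, which became 0.0888, 0.0579 and 0.0771 without iPSC replicates 1, 2 and 3 and 0.0517 with no filter on low counts. Klf2, of the same family, stood at 63.2, 51.1 and 43.1 CPM in Stage2 and 21.8, 23.5 and 23.8 CPM in iPSC. Dppa3 (Stella), a maternal factor that protects DNA from demethylation, stood at 112, 93.5 and 76.9 CPM in Stage2 and 22.4, 40.6 and 39 CPM in iPSC. In both, the highest iPSC library lay below the lowest Stage2 library. Tbx3, a T-box factor downstream of PI3 kinase signalling, averaged 103 ± 18.4 CPM in Stage2 and 48.3 ± 3.65 CPM in iPSC. Prdm14, a repressor of FGF signalling and of DNA methyltransferases, averaged 55.9 ± 2.4 CPM in Stage2 and 27.9 ± 1.36 CPM in iPSC. Esrrb, an orphan nuclear receptor of the naive network, averaged 483 ± 28.6 CPM in Stage2 and 327 ± 12.9 CPM in iPSC, and Klf4, a reprogramming factor, 189 ± 28 CPM in Stage2 and 119 ± 21.3 CPM in iPSC. The Benjamini-Hochberg adjusted p in edgeR was 1.71e-05 for Klf2, 0.0041 for Dppa3, 1.37e-05 for Tbx3, 7.68e-06 for Prdm14, 0.00027 for Esrrb and 0.00227 for Klf4. Log2 fold changes were -1.13 ± 0.14 for Klf2 and -1.41 ± 0.25 for Dppa3 (± SE). Esrrb, Klf4 and Tfcp2l1 were not called in the fit of all 12 libraries (edgeR adjusted p = 0.126, 0.148 and 0.226). With the exon length offset Tfcp2l1 had a log2 fold change of -0.03 and was not called (edgeR adjusted p = 0.803). All 10 nevertheless stayed expressed in iPSC, where their group means lay between 23.05 CPM for Klf2 and 449 CPM for Tet2.

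Genes of the formative and primed epiblast were mostly lower in iPSC too. Of 16 tested, 10 were lower in iPSC and 2, Lefty1 and Nodal, were higher, with a median of -0.95. Fgf5 and Fgf8 were scarce in iPSC and passed the filter on low counts through Stage2. Both had to differ, so they add nothing to the count of lower members. Pou3f1, Sall2, Dnmt3a and Sox3 were not called, with log2 fold changes of 0.53, 0.61, 0.18 and -0.56. Fgf5, the ligand that marks the implanted epiblast (chromosome 5, 98254184 to 98277033), stood at 13.3, 10.5 and 10.9 CPM in Stage2 and 0.267, 0.0711 and 0.546 CPM in iPSC, so it was near the detection limit in all 3 iPSC libraries. Its log2 fold change was -5.28 ± 0.38 (SE), and -6.04 without iPSC replicate 3. Otx2, a homeobox factor that drives the exit from the naive state (chromosome 14, 48656781 to 48667644), stood at 64.7, 63.1 and 59.8 CPM in Stage2 and 8.98, 8.6 and 7.37 CPM in iPSC. Zic2, a zinc finger factor of the epiblast and neural plate (chromosome 14, 122475384 to 122480328), stood at 89.6, 69.4 and 71.2 CPM in Stage2 and 8.09, 10.02 and 8.01 CPM in iPSC. In each of these genes the groups did not overlap, by a wide margin, which for Fgf5 and Zic2 the choice of leading falls required in part. Zic5 averaged 36.3 ± 12.4 CPM in Stage2 and 5.73 ± 1.45 CPM in iPSC, Foxd3 12.2 ± 1.91 CPM in Stage2 and 4.65 ± 1.18 CPM in iPSC, and the epithelial factor Grhl2 21 ± 2.93 CPM in Stage2 and 10.3 ± 2.39 CPM in iPSC. Hesx1, a homeobox gene of the anterior epiblast and forebrain that was on no list and stood among the 15 leading falls, averaged 7.14 ± 1.99 CPM in Stage2 and 0.887 ± 0.371 CPM in iPSC. Fgf8, a ligand of the gastrulating embryo, was low in both, at 1.1 ± 0.157 CPM in Stage2 and 0.131 ± 0.0712 CPM in iPSC. Values of adjusted p from edgeR (Benjamini-Hochberg) were 5.18e-08 for Fgf5, 4.89e-10 for Otx2, 6.77e-10 for Zic2, 4.55e-05 for Zic5 and 0.00024 for Foxd3. The corresponding log2 fold changes were -2.86 ± 0.13 for Otx2 and -3.08 ± 0.15 for Zic2 (± SE). In Stage1, before Stage2 in the titles' order, the same genes were low: Fgf5 averaged 0.205 ± 0.204, Otx2 4.5 ± 2.59 and Zic2 6.6 ± 1.54 CPM. Dnmt3b, a de novo DNA methyltransferase, averaged 185 ± 33 CPM in Stage2 and 107 ± 23.7 CPM in iPSC, a call lost without iPSC replicate 1 (edgeR adjusted p = 0.077) and in the fit of all 12 libraries (0.124).

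**Figure D3:**
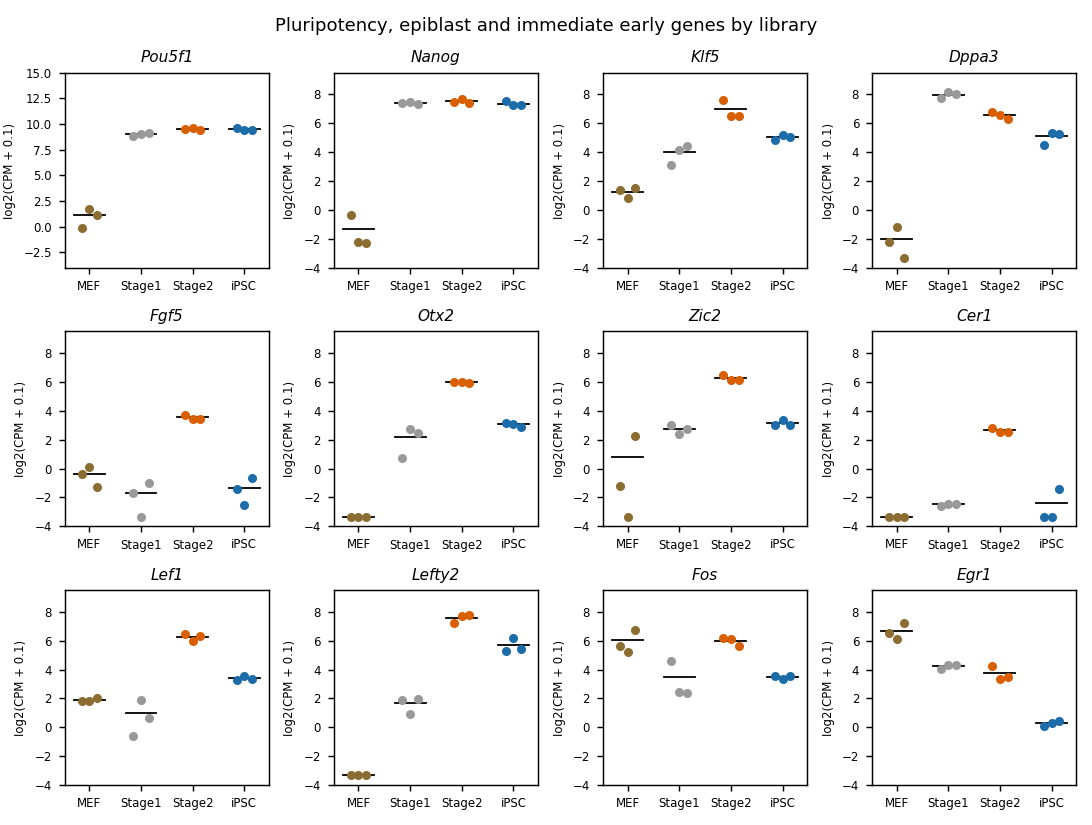
Log2 of CPM plus 0.1 (y axis) for 12 genes in each library of the 4 groups by title (x axis); points are libraries and bars are the log2 of the group mean plus 0.1. The Pou5f1 and Nanog libraries of Stage2 and iPSC overlap, while Fgf5, Otx2, Zic2, Cer1, Lef1, Fos and Egr1 lie lower in all 3 iPSC libraries than in any Stage2 library.

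Nodal pathway genes moved in both directions. Of 17 tested, 2 were higher in iPSC and 5 were lower (3 in the fit of all 12 libraries), with a median of -0.21. Over all genes tested 16.8% were higher and 19.2% lower, so the counts of this list are not far from those of all genes. The ligand Nodal stood at 16.9, 15.3 and 13.1 CPM in Stage2 and 26.8, 23.8 and 17.7 CPM in iPSC, and its feedback inhibitor Lefty1 at 9.19, 7.0 and 9.84 CPM in Stage2 and 15.7, 23 and 14.7 CPM in iPSC. Both were higher in iPSC without overlap. Lefty2, the neighbouring inhibitor gene (chromosome 1, 180893108 to 180899107), went the other way, at 151, 214 and 216 CPM in Stage2 and 38.9, 72.4 and 42.9 CPM in iPSC. Smad7, an inhibitor induced by the pathway, averaged 86.3 ± 8.87 CPM in Stage2 and 50.2 ± 6.81 CPM in iPSC. With edgeR's quasi-likelihood method, Benjamini-Hochberg adjusted p was 0.00746 for Nodal, 0.000607 for Lefty1, 0.00697 for Lefty2 and 0.000243 for Smad7. On the log2 scale the changes were 0.65 ± 0.17 for Nodal, 1.10 ± 0.21 for Lefty1 and -1.85 ± 0.30 for Lefty2 (± SE). Lefty1 and Lefty2 are closely similar genes on 1 chromosome, and the sources used here do not say how reads matching both were counted.

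Mesendoderm genes were scarce. Of 12 members, 8 were tested, 3 were lower and 1 was higher (4 and 0 with the exon length offset), and the summed level of the list was 28.6 to 39.0 CPM in Stage2 and 18.6 to 25.8 CPM in iPSC. The 3 lower members passed the filter on low counts through Stage2 and the 1 higher member through iPSC. These counts therefore support nothing beyond the values of each gene. Cer1 (Cerberus), a secreted inhibitor of Nodal, Wnt and BMP made by anterior endoderm (chromosome 4, 82881751 to 82885151), led all named falls. It stood at 6.92, 5.8 and 5.7 CPM in Stage2 and 0, 0 and 0.273 CPM in iPSC, that is 214 counts in the Stage2 libraries against 3 in the iPSC libraries. Their ratio of 73.3 had counting limits (95%) of 24.7 and 358. The fitted log2 fold change, which is no bound here, was -9.19 without iPSC replicate 3 and -5.36 without iPSC replicate 2. T (Brachyury), the mesoderm factor, averaged 3.0 ± 1.35 CPM in Stage2 and 0.854 ± 0.339 CPM in iPSC, and Foxa2, the endoderm factor, 2.27 ± 0.476 CPM in Stage2 and 0.522 ± 0.534 CPM in iPSC. Cer1 had a Benjamini-Hochberg adjusted p of 1.19e-06 in edgeR. It was 0.00829 for T, lost without Stage2 replicate 2 (0.0695), and 0.0157 for Foxa2, lost without Stage2 replicate 1 (0.0596) or iPSC replicate 2 (0.0671); the fit of all 12 libraries called neither of the latter pair. Without iPSC replicate 1 the log2 fold change of Foxa2 was -2.94 instead of -2.03 ± 0.61. The 1 higher member, Tbx6, averaged 0.423 ± 0.214 CPM in Stage2 and 1.11 ± 0.0671 CPM in iPSC, and its call (edgeR adjusted p = 0.0494) was lost without any single library, in the fit of all 12, with library totals, with no filter on low counts and with DESeq2.

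Wnt pathway genes were lower in iPSC, among them transcription factors of the pathway. Of 17 tested, 9 were lower and 1 was higher, with a median of -0.68; the fit of all 12 libraries called 5 lower. Lef1, a factor that activates Wnt targets together with beta-catenin (chromosome 3, 131110297 to 131224357), stood at 87.9, 63.1 and 81.1 CPM in Stage2 and 9.6, 11.9 and 10.2 CPM in iPSC. The groups were far apart, and Stage1 averaged 1.87 ± 1.56 CPM. Tcf7, a related activator, stood at 33.7, 31.5 and 26.9 CPM in Stage2 and 12.5, 14.3 and 12.5 CPM in iPSC. Tcf7l2 averaged 8.38 ± 0.986 CPM in Stage2 and 3.75 ± 0.448 CPM in iPSC, and Tcf7l1, the repressor of naive genes, 6.32 ± 2.21 CPM in Stage2 and 2.8 ± 0.745 CPM in iPSC. Notum, a secreted enzyme that inactivates Wnt ligands and is itself a target, averaged 9.94 ± 0.754 CPM in Stage2 and 4.08 ± 1.13 CPM in iPSC. Ctnnb1, which encodes beta-catenin, averaged 699 ± 23.4 CPM in Stage2 and 711 ± 28.1 CPM in iPSC and was not called. Adjusted p (edgeR quasi-likelihood, Benjamini-Hochberg) was 2.38e-09 for Lef1, 2.01e-05 for Tcf7, 0.00115 for Tcf7l2, 0.000596 for Notum and 0.011 for Tcf7l1. As log2 fold changes, these came to -2.82 ± 0.15 for Lef1 and -1.17 ± 0.15 for Tcf7 (± SE). The call of Tcf7l1 was lost without Stage2 replicate 1 (0.0551) or 2 (0.0629) and in the fit of all 12 libraries (0.052). Cdx1, a caudal homeobox target, was the 1 higher member at 0.54, 0 and 0 CPM in Stage2 and 1.6, 0.853 and 1.27 CPM in iPSC, a difference of few counts that was not called without Stage2 replicate 2 (edgeR adjusted p = 0.0633) or iPSC replicate 1 (0.0551). Its fitted log2 fold change was 6.99, 2.41 and 2.38 without Stage2 replicates 1, 2 and 3.

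Immediate early genes, which serum and growth factors switch on within minutes through ERK, were lower in iPSC. Of 13 tested, 8 were lower and 1 was higher, with a median of -0.88. Fos (chromosome 12, 85473890 to 85477274), a subunit of the AP-1 transcription factor, stood at 73.4, 68.4 and 48.5 CPM in Stage2 and 11.8, 10.1 and 11.7 CPM in iPSC. Its relative Fosb stood at 17.1, 9.22 and 6.36 CPM in Stage2 and 1.24, 0.569 and 0.455 CPM in iPSC. The Stage2 libraries differed among themselves, with replicate 1 highest in both, and all lay above every iPSC library. Fosb passed the filter on low counts through Stage2, so it adds nothing to the count of lower members. Jun, the partner of Fos in AP-1, averaged 21.6 ± 6.73 CPM in Stage2 and 4.31 ± 0.49 CPM in iPSC, and Junb 16.3 ± 6.55 CPM in Stage2 and 7.37 ± 0.236 CPM in iPSC. Egr1, a zinc finger factor induced by the same stimuli, stood at 19.13, 10.2 and 10.9 CPM in Stage2 and 0.978, 1.14 and 1.27 CPM in iPSC, with MEF at 103 ± 39.5 CPM. The serum response genes Ier2 and Nr4a1 averaged 17.4 ± 5.15 CPM in Stage2 and 6.44 ± 2.45 CPM in iPSC, and 11.4 ± 2.25 CPM in Stage2 and 5.99 ± 0.68 CPM in iPSC, respectively. In edgeR's quasi-likelihood fit, Benjamini-Hochberg adjusted p was 2.1e-08 for Fos, 5.09e-07 for Egr1, 1.99e-06 for Jun, 4.2e-05 for Fosb, 0.0024 for Junb, 0.00204 for Ier2 and 0.0034 for Nr4a1. Fitted log2 fold changes were -2.45 ± 0.16 for Fos, -3.50 ± 0.31 for Egr1 and -3.78 ± 0.45 for Fosb (± SE). Handling of cells before lysis can also induce these genes, the labels record nothing of it, and its part was not tested. Jund, the constitutively expressed relative, was the 1 higher member at 42.4 ± 5.71 against 30.9 ± 4.58 CPM, a call lost without Stage2 replicate 2 (edgeR adjusted p = 0.0568), in the fit of all 12 libraries (0.0664) and with the exon length offset (0.087).

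ERK feedback and target genes were mixed, with 3 higher and 5 lower of 15 (1 higher and 3 lower in the fit of all 12 libraries). All genes tested had 16.8% higher and 19.2% lower. The paired ETS factors downstream of FGF moved in opposite directions. Etv5 stood at 319, 316 and 331 CPM in Stage2 and 94, 111 and 88.3 CPM in iPSC, and Etv4 at 24.3, 18.6 and 13.3 CPM in Stage2 and 50.1, 45.2 and 44 CPM in iPSC. Neither gene overlapped between groups. Dusp4 and Spred2, inhibitors of the pathway, averaged 16.9 ± 1.29 CPM in Stage2 and 9.85 ± 0.799 CPM in iPSC, and 23.8 ± 6.83 CPM in Stage2 and 13.4 ± 0.26 CPM in iPSC. Spry2, another inhibitor, averaged 54.9 ± 16.7 CPM in Stage2 and 23.4 ± 5.22 CPM in iPSC. The Benjamini-Hochberg adjusted p in edgeR was 1.41e-08 for Etv5, 2.92e-05 for Etv4, 0.00251 for Dusp4, 0.00436 for Spred2 and 0.00736 for Spry2, the last lost without iPSC replicate 1 (0.0594). Log2 fold changes were -1.67 ± 0.10 for Etv5 and 1.37 ± 0.17 for Etv4 (± SE). Dusp4 was not called in the fit of all 12 libraries (0.0588).

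BMP pathway and Id genes were also split, with 5 higher and 4 lower of 15 (3 higher without iPSC replicate 3, 2 higher in the fit of all 12 libraries). Dusp9, an ERK phosphatase that BMP induces in mouse embryonic stem cells (chromosome X, 73639389 to 73643514), stood at 37.3, 38.9 and 35.4 CPM in Stage2 and 98.4, 99.2 and 95.6 CPM in iPSC. The iPSC libraries were higher without overlap and with little spread. Id1, an inhibitor of basic helix-loop-helix factors, stood at 3.03, 1.99 and 2.88 CPM in Stage2 and 6.67, 6.11 and 4.64 CPM in iPSC, and its relative Id3 at 5.84, 4.05 and 5.25 CPM in Stage2 and 0.711, 0.853 and 1.18 CPM in iPSC, so the pair moved in opposite directions. Id4 averaged 11.6 ± 2.55 CPM in Stage2 and 5.11 ± 0.655 CPM in iPSC, and the secreted BMP inhibitor Grem1 5.34 ± 2.23 CPM in Stage2 and 1.64 ± 0.499 CPM in iPSC. Values of adjusted p from edgeR (Benjamini-Hochberg) were 4.71e-08 for Dusp9, 0.00277 for Id1, 6.04e-05 for Id3, 0.000807 for Id4 and 0.0013 for Grem1. The corresponding log2 fold changes were 1.44 ± 0.10 for Dusp9, 1.20 ± 0.28 for Id1 and -2.40 ± 0.34 for Id3 (± SE). Id1 was not called in the fit of all 12 libraries (0.0549).

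In the LIF and Stat3 pathway 5 of 12 genes were lower and 1 was higher (3 lower without Stage2 replicate 1, 2 lower in the fit of all 12 libraries, 3 lower with the exon length offset). Osmr, the oncostatin M receptor, which is typical of mesenchymal cells, averaged 3.67 ± 0.398 CPM in Stage2 and 0.964 ± 0.327 CPM in iPSC (edgeR quasi-likelihood, Benjamini-Hochberg adjusted p = 0.00105). Socs3, the feedback inhibitor that Stat3 induces, averaged 157 ± 12.9 CPM in Stage2 and 176 ± 15.5 CPM in iPSC, and was not called.

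Fibroblast and mesenchymal genes were lower in iPSC than in Stage2, at levels far below MEF in both groups. Of 28 tested, 18 were lower and 3 were higher, with a median of -0.86, and the fit of all 12 libraries also called 18 lower. The summed level of the 30 genes was 1808 to 2136 CPM in Stage2, 954 to 993 CPM in iPSC and 52514 to 65549 CPM in MEF. As a median over the 30 genes, the level was 1.63% of MEF in Stage2, 0.736% in iPSC and 0.350% in Stage1. Col1a1, the main chain of type I collagen (chromosome 11, 94936224 to 94953042), stood at 30.8, 17.5 and 21.9 CPM in Stage2 and 7.03, 8.67 and 10.5 CPM in iPSC. Fn1, fibronectin, the most abundant member, stood at 1476, 1222 and 1300.2 CPM in Stage2 and 537, 564 and 579 CPM in iPSC. Acta2, smooth muscle actin, stood at 41.9, 43.6 and 70.3 CPM in Stage2 and 17.7, 19.5 and 17.1 CPM in iPSC, with Stage2 replicate 3 the highest. In these genes every Stage2 library lay above every iPSC library. Bgn, a matrix proteoglycan, averaged 30.1 ± 8.97 CPM in Stage2 and 7.68 ± 1.75 CPM in iPSC, and Lox, the enzyme that crosslinks collagen, 38.8 ± 8.0 CPM in Stage2 and 11.8 ± 1.0 CPM in iPSC. Thy1, a surface marker of fibroblasts, averaged 7.9 ± 0.903 CPM in Stage2 and 2.85 ± 0.449 CPM in iPSC. Actg2 and Aspn, contractile and matrix genes on no list that stood among the 15 leading falls, averaged 6.22 ± 2.13 CPM in Stage2 and 0.696 ± 0.411 CPM in iPSC, and 6.17 ± 1.84 CPM in Stage2 and 0.704 ± 0.129 CPM in iPSC. With edgeR's quasi-likelihood method, Benjamini-Hochberg adjusted p was 1.45e-07 for Fn1, 1.06e-06 for Lox, 2.43e-05 for Acta2, 2.43e-05 for Bgn, 0.00016 for Col1a1 and 0.000284 for Thy1. On the log2 scale the changes were -1.20 ± 0.10 for Fn1, -1.47 ± 0.18 for Acta2 and -1.37 ± 0.21 for Col1a1 (± SE). The exon length offset called 14 of the list lower, the list having a median length of 5063 bases.

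A few mesenchymal genes went the other way. Pdgfra, a receptor found in fibroblasts and in primitive endoderm, averaged 4.94 ± 0.403 CPM in Stage2 and 9.14 ± 1.52 CPM in iPSC, and the matrix protease Mmp2 8.51 ± 0.338 CPM in Stage2 and 13.3 ± 2.46 CPM in iPSC. Among 18 TGF-beta and Yap targets, 7 were lower and 2 were higher. Thbs1 and Ctgf, matricellular targets, averaged 256 ± 54.4 CPM in Stage2 and 74.4 ± 10.8 CPM in iPSC, and 35.3 ± 2.75 CPM in Stage2 and 14.3 ± 3.07 CPM in iPSC. The higher members were Tgfbi, a matrix protein, at 8.51 ± 1.43 CPM in Stage2 and 22.6 ± 5.46 CPM in iPSC, and the tropomyosin Tpm2 at 27.7 ± 3.77 CPM in Stage2 and 48.4 ± 4.49 CPM in iPSC. These differences had Benjamini-Hochberg adjusted p in edgeR of 0.00269 for Pdgfra, 0.00818 for Mmp2, 3.09e-06 for Thbs1, 2.43e-05 for Ctgf, 3.12e-05 for Tgfbi and 0.000116 for Tpm2. Fibroblast genes thus did not all move together, and the share of fibroblasts in either group was not tested.

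Epithelial junction genes had 8 of 18 lower and 1 higher (3 lower and 0 higher in the fit of all 12 libraries, 8 and 0 with the exon length offset). Cdh1 (E-cadherin), the main adhesion protein of pluripotent cells, averaged 406 ± 10.2 CPM in Stage2 and 293 ± 35.5 CPM in iPSC and was not called in that fit (edgeR adjusted p = 0.26). Esrp1, an epithelial splicing factor, stood at 58, 49.4 and 48.7 CPM in Stage2 and 9.6, 17.6 and 20.2 CPM in iPSC, and Rab25, an epithelial trafficking GTPase, at 1.84, 2.86 and 2.22 CPM in Stage2 and 0.267, 0.284 and 0.182 CPM in iPSC. The 3 iPSC libraries were lowest in both. Rab25 passed the filter on low counts through Stage2, so it adds nothing to the count of lower members. Adjusted p (edgeR quasi-likelihood, Benjamini-Hochberg) was 0.00335 for Cdh1, 0.000262 for Esrp1 and 0.000214 for Rab25. As log2 fold changes, these came to -1.67 ± 0.22 for Esrp1 and -3.13 ± 0.52 for Rab25 (± SE). Epcam, another adhesion protein, averaged 275 ± 29.2 CPM in Stage2 and 277 ± 7.21 CPM in iPSC, and was not called.

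Markers of other cell types were mostly below the filter on low counts. Of 12 macrophage genes 4 were tested, of 12 trophoblast genes 4, of 11 primitive endoderm genes 6 and of 11 neural genes 7. Csf1r, Tyrobp, Cdx2, Elf5, Gata3 and Sox7 did not pass that filter. Summed levels were 44.5 to 58.4 CPM in Stage2 and 25.4 to 34.9 CPM in iPSC for the macrophage genes, and 79.9 to 99.3 against 53.3 to 64.7 CPM for the trophoblast genes. They were 739 to 889 against 766 to 912 CPM for primitive endoderm and 89.5 to 110.6 against 99.2 to 111.2 CPM for the neural genes. Of the macrophage genes tested 0 were higher and 2, Cd68 and Laptm5, were lower, but the fit of all 12 libraries called 2 higher and 1 lower. Cd68, a lysosomal protein abundant in macrophages, averaged 28.2 ± 3.04 CPM in Stage2 and 11.4 ± 2.7 CPM in iPSC, while Lyz2 (lysozyme), with a log2 fold change of 1.37, was not called, and the leukocyte gene Ptprc averaged 0.887 ± 0.401 CPM in Stage2 and 0.612 ± 0.394 CPM in iPSC and was not called. Tfap2c, shared by trophoblast, germ cells and naive cells, averaged 61.2 ± 12.4 CPM in Stage2 and 31.9 ± 3.67 CPM in iPSC. Of the trophoblast genes 1 was lower and 0 were higher. Of the primitive endoderm genes 2, Gata4 and Cubn, were higher and 0 lower, but 0 were higher in the fit of all 12 libraries and at most 1 without any single library. With the exon length offset 3 were higher and 0 lower. Of the neural genes 2 were higher and 1, Nes, was lower (0 lower in the fit of all 12 libraries and with the exon length offset), while Pax6, Pax3, Tubb3 and Map2 were not called. The 2 higher ones, the factors Sox1 and Neurod1, stood at 4.65, 5.64 and 5.99 CPM in Stage2 and 16.1, 13.6 and 16.3 CPM in iPSC for Sox1 and 5.08, 4.29 and 6.36 CPM in Stage2 and 17.6, 13.8 and 17.6 CPM in iPSC for Neurod1. The groups did not overlap in either. In edgeR's quasi-likelihood fit, Benjamini-Hochberg adjusted p was 3.16e-05 for Cd68, 0.00023 for Tfap2c, 1.26e-05 for Sox1 and 9.79e-06 for Neurod1. Fitted log2 fold changes were 1.53 ± 0.19 for Sox1 and 1.68 ± 0.20 for Neurod1 (± SE). Ncan, a brain proteoglycan on no list and among the 15 leading rises, averaged 3.0 ± 0.739 CPM in Stage2 and 12.4 ± 0.967 CPM in iPSC (edgeR adjusted p = 3.58e-06).

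Genes of the two-cell-like state held the 2 leading rises in iPSC, Zscan4f and Zscan4c. Of 19 members 12 were tested, of which 9 were higher and 0 were lower, with a median of 3.33. All 9 were scarce in Stage2 and passed the filter on low counts through iPSC, so they had to differ, and the count and median support nothing beyond the values of each gene. The Zscan4 genes lie side by side on chromosome 7 and encode zinc finger proteins of the early embryo that are linked to telomere maintenance. Zscan4f (chromosome 7, 11397915 to 11402318) stood at 0.324, 0 and 0.148 CPM in Stage2 and 8.8, 8.46 and 10.6 CPM in iPSC. Zscan4c (chromosome 7, 11005745 to 11010547) stood at 0.649, 0.318 and 0.222 CPM in Stage2 and 4.62, 5.05 and 6.55 CPM in iPSC. Zscan4a (chromosome 7, 10794241 to 10799065) stood at 2.16, 0.0795 and 0.37 CPM in Stage2 and 6.67, 8.74 and 8.55 CPM in iPSC. All 3 were at or near the detection limit in Stage2, except for Zscan4a in Stage2 replicate 1, without which its log2 fold change was 5.15 instead of 3.41. For Zscan4f it was 6.82 without Stage2 replicate 1 and 5.38 without Stage2 replicate 2. Zscan4d and Zscan4e had no count in Stage2 and stood at 2.85, 4.41 and 3.55 CPM and 1.33, 1.42 and 1.27 CPM in the iPSC libraries, which is at least 43.2-fold and at least 15.9-fold higher with a floor of 3 counts over the Stage2 group. The Zscan4 copies are nearly identical, so reads can be split among them, and their single values are uncertain. The Benjamini-Hochberg adjusted p in edgeR was 7.64e-08 for Zscan4f, 3.18e-06 for Zscan4c and 0.00545 for Zscan4a. Log2 fold changes were 5.97 ± 0.45 for Zscan4f, 3.87 ± 0.41 for Zscan4c and 3.41 ± 0.67 for Zscan4a (± SE).

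Other genes of this state rose from similarly low levels. Tcstv1 stood at 0.54, 0.0795 and 0 CPM in Stage2 and 3.29, 1.35 and 3.28 CPM in iPSC, and Usp17lc, a deubiquitinase gene, at 0, 0.0795 and 0.296 CPM in Stage2 and 1.07, 1.21 and 1.82 CPM in iPSC. Tmem92 averaged 0.417 ± 0.284 CPM in Stage2 and 1.65 ± 0.374 CPM in iPSC and Tcstv3 0.552 ± 0.378 CPM in Stage2 and 1.83 ± 0.697 CPM in iPSC. Dux, which encodes the factor that activates this programme, was low in both groups at 0.865, 1.59 and 2.66 CPM in Stage2 and 1.96, 0.853 and 1.55 CPM in iPSC, overlapping, and Zfp352 averaged 0.733 ± 0.268 CPM in Stage2 and 1.24 ± 0.0489 CPM in iPSC; neither was called. Values of adjusted p from edgeR (Benjamini-Hochberg) were 0.000635 for Tcstv1 and 0.00207 for Usp17lc. The corresponding log2 fold changes were 3.87 ± 0.72 for Tcstv1 and 3.24 ± 0.71 for Usp17lc (± SE). Adjusted p in edgeR was 0.0103 for Tmem92, lost without iPSC replicate 2 (0.0636) and in the fit of all 12 libraries (0.0625), and 0.0198 for Tcstv3, lost without Stage2 replicates 1 or 2 (0.0735 and 0.0751) or iPSC replicates 2 or 3 (0.0571 and 0.0873), in the fit of all 12 libraries (0.0555) and with the exon length offset (0.067). Single Stage2 libraries moved these folds: the log2 fold change of Tcstv1 was 5.83 without replicate 1 and 3.22 without replicate 3, that of Usp17lc 4.66 without replicate 3 and that of Tcstv3 2.36 without replicate 3. The summed level of the list was 6.84 to 10.4 CPM in Stage2 and 38.3 to 52.2 CPM in iPSC.

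Germline and meiosis genes were higher in iPSC as well. Of 23 tested, 11 were higher and 2 were lower, with a median of 0.62, and the fit of all 12 libraries called 6 higher. Their promoters are shown because many germline genes carry the E-box CACGTG, the sequence bound by Max with partners such as Mga, a pair known to repress germline genes in embryonic stem cells. The motif (both strands read the same) occurred in 7.15% of 32851 promoter windows from RefSeq, each running from 250 bases before to 50 after a start. It occurred in 11.9% of 10022 tested genes with a window, 11.6% of those higher in iPSC and 12.6% of those lower. Of the list's members with a window, 6 of 8 called higher, 0 of 2 called lower and 6 of 10 not called held it. Windows of Tex11, Piwil2 and Rnf17 were not among those used. The following 120-base stretches of promoters (GRCm38.p6) are from 5 genes called higher and from Stk31 and Hormad1, which were not called, with each E-box in capitals.
Sycp3 (chr10:88459476-88459595, strand +): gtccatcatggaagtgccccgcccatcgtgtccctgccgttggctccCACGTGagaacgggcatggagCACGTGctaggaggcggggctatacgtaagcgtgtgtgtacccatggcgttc
Ddx4 (chr13:112652281-112652400, strand -): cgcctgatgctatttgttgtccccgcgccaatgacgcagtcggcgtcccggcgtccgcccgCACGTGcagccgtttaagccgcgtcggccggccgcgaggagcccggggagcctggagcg
Mael (chr1:166238875-166238994, strand -): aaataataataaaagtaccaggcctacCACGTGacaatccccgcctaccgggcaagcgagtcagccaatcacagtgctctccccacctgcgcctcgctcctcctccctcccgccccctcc
Taf7l (chrX:134476477-134476596, strand -): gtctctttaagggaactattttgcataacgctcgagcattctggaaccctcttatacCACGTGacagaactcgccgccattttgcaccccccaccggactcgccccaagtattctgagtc
Tdrd1 (chr19:56826119-56826238, strand +): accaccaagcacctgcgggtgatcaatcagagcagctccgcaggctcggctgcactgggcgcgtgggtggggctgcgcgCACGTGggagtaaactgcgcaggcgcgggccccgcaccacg
Stk31 (chr6:49395427-49395546, strand +): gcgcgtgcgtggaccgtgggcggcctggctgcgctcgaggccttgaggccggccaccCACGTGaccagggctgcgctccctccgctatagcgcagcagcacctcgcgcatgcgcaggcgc
Hormad1 (chr3:95559581-95559700, strand +): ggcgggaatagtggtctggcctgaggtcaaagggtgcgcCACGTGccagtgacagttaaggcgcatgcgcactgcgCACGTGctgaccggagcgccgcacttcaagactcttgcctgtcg

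Several of the genes act in meiosis. Tex11, an X-linked gene needed for meiotic recombination (chromosome X, 100838648 to 101059639), stood at 7.03, 5.96 and 9.1 CPM in Stage2 and 40.9, 37 and 37 CPM in iPSC. Sycp3, a structural protein of meiotic chromosome axes (chromosome 10, 88459587 to 88473236), which has 2 E-boxes in the window above, stood at 22.2, 28.8 and 29.8 CPM in Stage2 and 62.5, 66.8 and 88.2 CPM in iPSC. Stra8, the gene that retinoic acid induces at meiotic entry (chromosome 6, 34920163 to 34939344), was on the retinoic acid list and stood at 2.92, 1.59 and 1.78 CPM in Stage2 and 20.6, 19.3 and 18.5 CPM in iPSC. In all 3 genes every iPSC library was above every Stage2 library, which for Tex11 and Stra8 the choice of leading rises required. Ccdc36, a meiotic recombination factor on no list, averaged 1.77 ± 0.379 CPM in Stage2 and 8.47 ± 1.07 CPM in iPSC. Smc1b, the meiotic cohesin subunit, went the other way at 130.5, 129 and 148 CPM in Stage2 and 75.1, 63.3 and 90.4 CPM in iPSC. Hormad1, a meiotic axis protein, averaged 33.1 ± 4.47 CPM in Stage2 and 26.9 ± 4.3 CPM in iPSC, and the cohesin subunit Stag3 115 ± 12 CPM in Stage2 and 97.2 ± 6.28 CPM in iPSC; neither was called, Hormad1 being lower with the exon length offset (edgeR adjusted p = 0.038). With edgeR's quasi-likelihood method, Benjamini-Hochberg adjusted p was 2.68e-08 for Tex11, 1.62e-06 for Sycp3, 3.38e-08 for Stra8, 5.99e-06 for Ccdc36 and 8.97e-05 for Smc1b. On the log2 scale the changes were 2.42 ± 0.16 for Tex11, 1.47 ± 0.14 for Sycp3, 3.30 ± 0.23 for Stra8 and -0.79 ± 0.12 for Smc1b (± SE).

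Genes of germ granules and of the piRNA pathway, which silences transposons in germ cells, followed. Ddx4 (Vasa), an RNA helicase of germ granules (chromosome 13, 112598333 to 112652633), stood at 22.6, 22.6 and 19.97 CPM in Stage2 and 50.2, 63.6 and 55 CPM in iPSC. Rnf17, a Tudor-domain protein and the most abundant member named here, stood at 230.0, 281 and 255 CPM in Stage2 and 443, 462 and 465 CPM in iPSC. Both were higher in all 3 iPSC libraries. Mael averaged 11.6 ± 1.3 CPM in Stage2 and 19.6 ± 5.22 CPM in iPSC, Tdrd1 1.45 ± 0.0853 CPM in Stage2 and 4.94 ± 0.353 CPM in iPSC, and Piwil2, a Piwi protein, 17.5 ± 1.2 CPM in Stage2 and 26.3 ± 0.483 CPM in iPSC. Taf7l, a germ cell subunit of the basal transcription machinery, averaged 3.18 ± 0.665 CPM in Stage2 and 6.86 ± 1.07 CPM in iPSC. Stk31 averaged 21.6 ± 5.03 CPM in Stage2 and 22.2 ± 1.93 CPM in iPSC, and the RNA-binding germ cell protein Dazl 25.1 ± 2.36 CPM in Stage2 and 19.3 ± 1.61 CPM in iPSC; neither was called, although Dazl was called lower with library totals (edgeR adjusted p = 0.0446). These differences had Benjamini-Hochberg adjusted p in edgeR of 6.55e-07 for Ddx4, 2.36e-06 for Rnf17, 0.00386 for Mael, 0.00155 for Piwil2, 0.000179 for Tdrd1 and 0.00193 for Taf7l. As log2 fold changes, these came to 1.43 ± 0.13 for Ddx4 and 0.89 ± 0.09 for Rnf17 (± SE). Tdrd1 and Taf7l were not called in the fit of all 12 libraries (edgeR adjusted p = 0.0514 and 0.0992). Mga, the E-box repressor, averaged 1049 ± 59.2 CPM in Stage2 and 674 ± 56.6 CPM in iPSC (edgeR adjusted p = 0.00014, and 0.16 with the exon length offset). Whether its level bears on the germline genes was not tested.

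**Figure D4:**
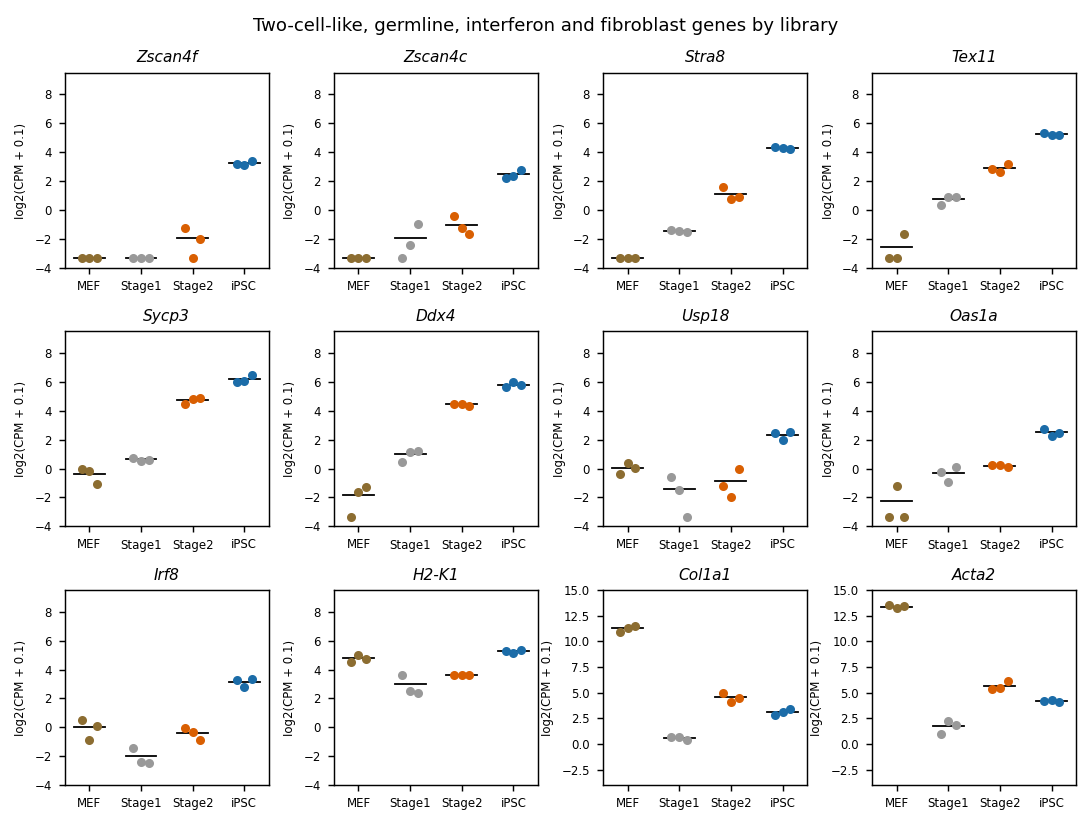
Log2 of CPM plus 0.1 (y axis) for 12 two-cell-like, germline, interferon, class I and fibroblast genes in each library of the 4 groups by title (x axis); points are libraries and bars are the log2 of the group mean plus 0.1. The first 10 genes lie higher in all 3 iPSC libraries than in any Stage2 library, and Col1a1 and Acta2 lie lower.

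Interferon response genes were divided. Interferons induce a large set of antiviral genes through transcription factors that bind the interferon-stimulated response element (ISRE). Of 18 tested, 5 were higher and 3 were lower (5 with the exon length offset), with a median of 0.29. These counts are not far from the shares of all genes tested, 16.8% higher and 19.2% lower. Usp18, a brake on interferon receptor signalling (chromosome 6, 121245906 to 121270917), stood at 0.324, 0.159 and 0.888 CPM in Stage2 and 5.34, 3.77 and 5.82 CPM in iPSC. Oas1a, an antiviral sensor of double-stranded RNA (chromosome 5, 120896256 to 120907544), stood at 1.08, 1.11 and 0.962 CPM in Stage2 and 6.67, 4.69 and 5.37 CPM in iPSC. The iPSC libraries were higher without overlap in both, which for Oas1a the choice of the 15 leading rises required. Irf7, an inducible factor of the response, averaged 0.313 ± 0.0149 CPM in Stage2 and 1.97 ± 0.525 CPM in iPSC. Usp18 and Irf7 were scarce in Stage2 and passed the filter on low counts through iPSC. Both had to differ, so they add nothing to the count of higher members. Irf8, Ifi27l1 and Rtp4, which interferon is known to induce, were on no list and stood among the 15 leading rises. Irf8, a factor of immune cells, averaged 0.675 ± 0.213 CPM in Stage2 and 8.74 ± 1.55 CPM in iPSC, Ifi27l1 averaged 2.28 ± 1.17 CPM in Stage2 and 30.4 ± 7.43 CPM in iPSC, and Rtp4 averaged 1.18 ± 0.132 CPM in Stage2 and 9.75 ± 0.867 CPM in iPSC. Adjusted p (edgeR quasi-likelihood, Benjamini-Hochberg) was 2.89e-05 for Usp18, 2.03e-05 for Oas1a, 0.000756 for Irf7, 3.3e-07 for Irf8, 7.17e-07 for Ifi27l1 and 2.91e-07 for Rtp4. Fitted log2 fold changes were 3.40 ± 0.45 for Usp18 (4.42 without Stage2 replicate 3) and 2.44 ± 0.31 for Oas1a (± SE).

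The lower members were Ifitm1, Irf1 and Ddx58. Ifitm1, a membrane protein of the response that early embryonic cells also express (chromosome 7, 140967429 to 140969827), stood at 127, 102 and 108 CPM in Stage2 and 39.4, 31.5 and 46.4 CPM in iPSC. Irf1, which activates class I genes, averaged 55.1 ± 4.6 CPM in Stage2 and 33.8 ± 4.7 CPM in iPSC, and Ddx58 (RIG-I), a sensor of viral RNA, 79.3 ± 9.11 CPM in Stage2 and 53 ± 4.36 CPM in iPSC. In edgeR's quasi-likelihood fit, Benjamini-Hochberg adjusted p was 7.44e-07 for Ifitm1, 0.000861 for Irf1 and 0.00212 for Ddx58. The summed level of the list was lower in iPSC, at 566 to 640 CPM against 669 to 723 CPM, while its median log2 fold change was above 0.

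Class I antigen presentation genes had 5 of 10 members higher and 1 lower, with a median of 0.73 and a median length of 1878 bases. The fit of all 12 libraries called 3 higher, as did the exon length offset and the fits without Stage2 replicate 1 or 3 or iPSC replicate 1. H2-K1, a classical class I heavy chain (chromosome 17, 33996012 to 34000619), stood at 12.2, 12.2 and 12.4 CPM in Stage2 and 38.4, 35.9 and 40.03 CPM in iPSC. B2m, the light chain shared by class I molecules (chromosome 2, 122147687 to 122153082), stood at 9.62, 9.78 and 9.69 CPM in Stage2 and 22.8, 23.7 and 23.3 CPM in iPSC. The replicates agreed closely in both, and the iPSC libraries lay above. Tap1, the peptide transporter, stood at 1.19, 2.15 and 3.33 CPM in Stage2 and 9.34, 4.76 and 5.91 CPM in iPSC. Tapbp, which helps load peptides, was the 1 lower member at 42.5 ± 2.71 CPM in Stage2 and 22 ± 1.96 CPM in iPSC. The Benjamini-Hochberg adjusted p in edgeR was 1.42e-07 for H2-K1, 6.52e-06 for B2m, 0.00171 for Tap1 and 4.71e-05 for Tapbp. Log2 fold changes were 1.68 ± 0.13 for H2-K1, 1.31 ± 0.15 for B2m and 1.58 ± 0.34 for Tap1 (± SE). B2m stayed far below its MEF level of 413 ± 50.3 CPM.

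The core of the ISRE, searched on both strands as GAAA, any 2 bases and GAAA, occurred in 3.44% of all promoter windows and 3.49% of tested genes with a window. The share was 4.64% of genes called higher, 3.89% of those called lower and 3.08% of those not called. In the interferon list 1 of 3 higher, 1 of 3 lower and 8 of 10 not called members with a window held the element, and in the class I list 1 of 5 higher members did. The stretches below are from Oas1a and B2m, called higher, Ddx58, called lower, and Ifit3, not called, with matches in capitals. In Oas1a a pair of matches overlaps.
Oas1a (chr5:120907496-120907615, strand -): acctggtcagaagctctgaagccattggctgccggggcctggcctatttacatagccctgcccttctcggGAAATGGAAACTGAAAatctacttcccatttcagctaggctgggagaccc
B2m (chr2:122147493-122147612, strand +): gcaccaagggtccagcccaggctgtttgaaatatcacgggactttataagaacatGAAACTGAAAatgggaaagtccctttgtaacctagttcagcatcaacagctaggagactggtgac
Ddx58 (chr4:40239796-40239915, strand -): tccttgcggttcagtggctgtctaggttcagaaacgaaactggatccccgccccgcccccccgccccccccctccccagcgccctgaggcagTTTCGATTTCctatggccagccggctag
Ifit3 (chr19:34583335-34583454, strand +): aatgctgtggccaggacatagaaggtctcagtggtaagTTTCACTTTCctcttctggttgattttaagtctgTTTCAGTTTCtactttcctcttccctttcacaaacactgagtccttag
Ifit3 stood at 0, 0.477 and 0.814 CPM in Stage2 and 1.24, 1.21 and 1.64 CPM in iPSC, near the detection limit in Stage2, and was called higher with no filter on low counts (edgeR adjusted p = 0.0376) and without Stage2 replicate 3 (0.0256).

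DNA methylation and demethylation genes had 6 of 15 lower and 1 higher. The Tet enzymes oxidize 5-methylcytosine. Tet1 (chromosome 10, 62804570 to 62887469) stood at 1267, 1074 and 1287 CPM in Stage2 and 571, 747 and 621 CPM in iPSC, so each iPSC library lay well below each Stage2 library. Tet2 stood at 758, 602 and 729 CPM in Stage2 and 433, 464 and 451 CPM in iPSC, and Tet3, the least abundant, averaged 8.36 ± 0.821 CPM in Stage2 and 4.24 ± 0.499 CPM in iPSC. Zfp57, which maintains methylation at imprinted regions, averaged 447 ± 28.3 CPM in Stage2 and 289 ± 33.9 CPM in iPSC. The maintenance methyltransferase Dnmt1 averaged 629 ± 30.4 CPM in Stage2 and 572 ± 26.5 CPM in iPSC, and its partner Uhrf1 487 ± 40.1 CPM in Stage2 and 436 ± 26.5 CPM in iPSC; neither was called. Uhrf2, a relative of Uhrf1, was the 1 higher member at 66.7 ± 7.17 CPM in Stage2 and 98.4 ± 8.07 CPM in iPSC. Values of adjusted p from edgeR (Benjamini-Hochberg) were 2.93e-05 for Tet1, 0.000268 for Tet2, 0.00328 for Tet3, 0.000362 for Zfp57 and 0.00035 for Uhrf2. The corresponding log2 fold changes were -0.85 ± 0.11 for Tet1 and -0.58 ± 0.10 for Tet2 (± SE). Tet3 was not called with the exon length offset (0.0781). Among 11 genes of Polycomb repressive complex 2, which methylates H3K27, 4 were lower and 2 were higher (2 lower and 1 higher in the fit of all 12 libraries, 2 lower with the exon length offset). Its core subunit Suz12 averaged 414 ± 24.7 CPM in Stage2 and 261 ± 24.6 CPM in iPSC (edgeR adjusted p = 0.000151), and the histone-binding subunit Rbbp7 266 ± 35.5 CPM in Stage2 and 423 ± 30.1 CPM in iPSC (edgeR adjusted p = 5.68e-05).

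Of 11 genes of the Myc network, 6 were lower and 1 was higher (3 and 0 in the fit of all 12 libraries). Myc itself, a reprogramming factor, was scarce in both groups at 6.38, 3.42 and 2.74 CPM in Stage2 and 1.51, 3.41 and 0.728 CPM in iPSC. It missed the threshold, but passed it as lower with no filter on low counts (edgeR adjusted p = 0.0172) and without iPSC replicate 2 (0.0119). Mycn, the Myc gene of embryonic cells, averaged 151 ± 16.2 CPM in Stage2 and 107 ± 11.8 CPM in iPSC, and the repressor Mnt 23.7 ± 1.62 CPM in Stage2 and 11.1 ± 0.982 CPM in iPSC. With edgeR's quasi-likelihood method, Benjamini-Hochberg adjusted p was 0.00506 for Mycn (0.0604 in the fit of all 12 libraries) and 8.41e-05 for Mnt. Among 8 genes of the Lin28 and let-7 group 5 were lower (2 in the fit of all 12 libraries) and 1 was higher. Hmga2, a chromatin protein repressed by let-7 (chromosome 10, 120361268 to 120476469), stood at 36.2, 29.1 and 33.9 CPM in Stage2 and 2.85, 5.19 and 4.19 CPM in iPSC. It averaged 89.8 ± 0.773 CPM in Stage1 and 193 ± 34.6 CPM in MEF, so the iPSC level was the lowest of the 4 groups. Igf2bp2, an RNA-binding let-7 target, averaged 274 ± 28.6 CPM in Stage2 and 105 ± 15.5 CPM in iPSC, while Lin28b, the second let-7 blocker, was higher at 41.4 ± 4.28 CPM in Stage2 and 71.8 ± 14.9 CPM in iPSC. These differences had Benjamini-Hochberg adjusted p in edgeR of 2.68e-08 for Hmga2, 3.1e-07 for Igf2bp2 and 0.000367 for Lin28b.

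Cell cycle genes were modestly higher in iPSC. Of 20 S phase genes 13 were higher and 0 lower, with a median of 0.31, and 6 were called higher in the fit of all 12 libraries. Ccne1, the cyclin that starts S phase (chromosome 7, 38097984 to 38107490), stood at 127, 119.7 and 124 CPM in Stage2 and 209, 242 and 219 CPM in iPSC, and its relative Ccne2 at 34.4, 26.6 and 31.4 CPM in Stage2 and 57.1, 67.9 and 49.95 CPM in iPSC. Both were higher in every iPSC library. Cdc45, a part of the replicative helicase, averaged 56.4 ± 1.88 CPM in Stage2 and 84.9 ± 5.78 CPM in iPSC. Of 20 mitosis genes 9 were higher and 2 were lower, with a median of 0.23. Kif20a, a kinesin of cell division, averaged 178 ± 13.1 CPM in Stage2 and 249 ± 32.1 CPM in iPSC. The proliferation marker Mki67 averaged 1365 ± 214 CPM in Stage2 and 1135 ± 109.6 CPM in iPSC, and was not called. Adjusted p (edgeR quasi-likelihood, Benjamini-Hochberg) was 3.17e-06 for Ccne1, 5.72e-05 for Ccne2, 0.000155 for Cdc45 and 0.000753 for Kif20a. On the log2 scale the changes were 0.90 ± 0.10 for Ccne1 and 0.98 ± 0.14 for Ccne2 (± SE).

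CDK inhibitors and p53 targets had 8 of 22 higher and 5 lower. With the exon length offset 7 were higher and 6 lower. The lower ones were Cdkn2a, Cdkn1a, Cdkn1b, Trp53 and Zmat3. Cdkn2a, the Ink4a/Arf locus (chromosome 4, 89274473 to 89294619), stood at 10.5, 11.6 and 10.9 CPM in Stage2 and 1.78, 1.78 and 3.09 CPM in iPSC, and averaged 18.9 ± 7.05 CPM in Stage1 and 45.6 ± 7.84 CPM in MEF. Cdkn1a (p21) stood at 22.4, 21.8 and 14.9 CPM in Stage2 and 11.3, 9.17 and 7.28 CPM in iPSC. Neither gene overlapped between groups. Targets of p53 went in both directions, since Zmat3 was lower and Bax, Gadd45a and Phlda3 were not called. Of the higher ones, Ccng1 averaged 272 ± 32.3 CPM in Stage2 and 412 ± 28.4 CPM in iPSC, Mdm2, the ligase that degrades p53, 135 ± 3.29 CPM in Stage2 and 177 ± 13.8 CPM in iPSC, and the proapoptotic Bbc3 (Puma) 13.9 ± 2.1 CPM in Stage2 and 22.5 ± 5.56 CPM in iPSC. Transcripts of p53 itself, Trp53, averaged 70.6 ± 5.59 CPM in Stage2 and 49.2 ± 8.26 CPM in iPSC. In edgeR's quasi-likelihood fit, Benjamini-Hochberg adjusted p was 4.09e-06 for Cdkn2a, 0.000749 for Cdkn1a, 9.17e-05 for Ccng1, 0.00162 for Mdm2, 0.00507 for Bbc3 and 0.00741 for Trp53, the last not called in the fit of all 12 libraries (0.125). As log2 fold changes, these came to -2.27 ± 0.25 for Cdkn2a and -1.04 ± 0.20 for Cdkn1a (± SE).

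Metabolic lists moved in different directions. Of 21 glycolysis genes, 10 were higher and 4 were lower (5 and 1 in the fit of all 12 libraries). The higher members included Tpi1 at 232 ± 23.6 CPM in Stage2 and 361 ± 23.5 CPM in iPSC, Gapdh at 1207 ± 73.5 CPM in Stage2 and 1631 ± 179.9 CPM in iPSC and Ldha at 704 ± 50.8 CPM in Stage2 and 959.9 ± 42.2 CPM in iPSC. Hk2 and Pfkp, kinases of early steps, were lower, at 814 ± 34 CPM in Stage2 and 555 ± 32 CPM in iPSC for Hk2 and 1159 ± 39 CPM in Stage2 and 621 ± 52.5 CPM in iPSC for Pfkp. Among 13 hypoxia targets 6 were lower and 2 higher (3 and 2 in the fit of all 12 libraries), with Vegfa, the vascular growth factor, at 248, 257 and 270.5 CPM in Stage2 and 127, 116 and 143 CPM in iPSC and Ndrg1 at 106 ± 10.5 CPM in Stage2 and 56.4 ± 4.67 CPM in iPSC. Serine and one-carbon genes had 8 of 13 higher and 0 lower, among them Phgdh, the first enzyme of serine synthesis, at 55, 62.2 and 62.3 CPM in Stage2 and 122, 118 and 113 CPM in iPSC. Every iPSC library of Phgdh was above every Stage2 library. The Benjamini-Hochberg adjusted p in edgeR was 3.67e-05 for Tpi1, 0.000875 for Gapdh, 0.000315 for Ldha, 0.000316 for Hk2 (0.0548 in the fit of all 12 libraries), 2.57e-06 for Pfkp, 1.74e-06 for Vegfa, 1.35e-05 for Ndrg1 and 1.27e-06 for Phgdh. Fitted log2 fold changes were -0.96 ± 0.10 for Vegfa and 1.02 ± 0.10 for Phgdh (± SE).

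Lists of short, abundant housekeeping genes were higher in iPSC, and their counts moved with the exon length offset. Of 77 cytoplasmic ribosomal protein genes (median length 976 bases) 63 were higher and 1 lower, and 30 and 2 with the exon length offset. Of 89 oxidative phosphorylation genes (1046 bases) 52 were higher and 1 lower, 28 and 2 in the fit of all 12 libraries, and 16 and 9 with the offset. Of 76 mitochondrial ribosomal protein genes (1339 bases) 37 were higher and 2 lower, 20 and 0 in the fit of all 12 libraries, and 24 and 5 with the offset. Of 60 replication-dependent histone genes (555 bases), whose transcripts mostly lack a poly(A) tail, 32 were higher and 2 lower, and 24 and 3 with the offset. The reads outside genes, 11.1 percentage points fewer in iPSC, moved with the same groups. Rpl3 averaged 1484 ± 154 CPM in Stage2 and 2439.8 ± 144 CPM in iPSC, the respiratory subunit Cox4i1 99.8 ± 19.3 CPM in Stage2 and 229 ± 15.2 CPM in iPSC, and Mrpl18 96.6 ± 12.2 CPM in Stage2 and 174 ± 4.16 CPM in iPSC. Hist1h2aa, a testis-type H2A gene that stood among the 15 leading rises (chromosome 13, 23934437 to 23934913), stood at 2.59, 1.67 and 1.48 CPM in Stage2 and 10.8, 12.1 and 9.1 CPM in iPSC. Cox7b2, a testis-type respiratory subunit, was the 1 lower member of its list at 6.05, 6.6 and 5.47 CPM in Stage2 and 0, 0.284 and 0.546 CPM in iPSC, and every iPSC library was near the detection limit, with a log2 fold change of -4.35 ± 0.48 that was -5.12 without iPSC replicate 3. Values of adjusted p from edgeR (Benjamini-Hochberg) were 9.79e-06 for Rpl3, 2.77e-06 for Cox4i1, 5.75e-06 for Mrpl18, 2.28e-06 for Hist1h2aa and 4.35e-06 for Cox7b2.

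The abundant nuclear long noncoding RNAs were lower in iPSC. Malat1, which stays in nuclear speckles, stood at 15380.3, 16287 and 16401 CPM in Stage2 and 6861, 9707 and 9863 CPM in iPSC, and Neat1, the scaffold of paraspeckles (chromosome 19, 5824708 to 5845480), at 121, 137 and 108 CPM in Stage2 and 38.1, 44.1 and 41.8 CPM in iPSC. The Stage2 libraries were higher without overlap in both (edgeR quasi-likelihood, Benjamini-Hochberg adjusted p = 0.00012 for Malat1 and 8.8e-08 for Neat1). Log2 fold changes were -0.81 ± 0.12 for Malat1 and -1.51 ± 0.11 for Neat1 (± SE). The share of reads outside genes was higher in the same Stage2 libraries, and its part in these differences was not tested.

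Imprinted genes outside the Dlk1-Dio3 region had 5 of 22 members higher and 6 lower (4 and 3 in the fit of all 12 libraries, 3 and 4 with the exon length offset). That is not far from all genes tested, of which 16.8% were higher and 19.2% lower. Imprinted genes are expressed from 1 parental allele under the control of DNA methylation. Slc38a4, an amino acid transporter (chromosome 15, 96994816 to 97055956), stood at 193, 162 and 159 CPM in Stage2 and 424, 434 and 491 CPM in iPSC, and Phlda2, a growth inhibitor of the placenta (chromosome 7, 143501545 to 143503145), at 4.43, 3.9 and 3.55 CPM in Stage2 and 12.3, 15.5 and 14.6 CPM in iPSC. Peg3, a paternally expressed zinc finger gene, stood at 145, 109.8 and 128 CPM in Stage2 and 48.8, 71.3 and 71.8 CPM in iPSC. The growth factor Igf2 averaged 5.82 ± 0.528 CPM in Stage2 and 2.18 ± 0.255 CPM in iPSC, and the neighbouring noncoding H19 69.3 ± 4.12 CPM in Stage2 and 34.6 ± 4.76 CPM in iPSC. None of these 5 genes overlapped between groups, as was the case for 48.3% of all genes tested. With edgeR's quasi-likelihood method, Benjamini-Hochberg adjusted p was 4.67e-08 for Slc38a4, 3.58e-06 for Phlda2, 0.000337 for Peg3, 0.000865 for Igf2 and 1.67e-05 for H19, the last 0.158 in the fit of all 12 libraries. The corresponding log2 fold changes were 1.44 ± 0.10 for Slc38a4, 1.89 ± 0.20 for Phlda2 and -0.94 ± 0.15 for Peg3 (± SE). In the Dlk1-Dio3 region, whose silencing marks some iPSC clones, Meg3 averaged 111 ± 13.2 CPM in Stage2 and 84 ± 12.3 CPM in iPSC. Its call (edgeR adjusted p = 0.034) was lost without Stage2 replicate 1 (0.202) or 2 (0.0706) or iPSC replicate 1 (0.162) or 3 (0.0685), was not made in the fit of all 12 libraries (0.148), and its sign turned with the exon length offset. Among the other 5 tested genes of the region 0 were called.

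Genes of the X chromosome had a lower median in iPSC. Of 474 X-linked genes tested, 8.44% were higher and 26.8% were lower, with a median log2 fold change of -0.19, while the medians of the other chromosomes lay between -0.07 and 0.05. With the exon length offset the X-linked median was also -0.19. The share of gene counts on the X was 3.73% ± 0.309 in Stage2 and 3.49% ± 0.137 in iPSC (SD, n = 3; exact two-sided permutation p = 0.3). Medians of 20-megabase bins along the X ranged from -0.33 to 0.02. Xist, the noncoding RNA of X inactivation, was low in all 6 libraries at 3.46, 8.11 and 10.7 CPM in Stage2 and 4.71, 5.69 and 4.73 CPM in iPSC. It was not called, but was lower without Stage2 replicate 1 (edgeR adjusted p = 0.0162). Among the X-linked genes that fell was Rhox5, a homeobox gene of the placenta and testis that DNA methylation silences (chromosome X, 37754608 to 37808878), at 111, 120.4 and 98.5 CPM in Stage2 and 12.5, 29.9 and 29.8 CPM in iPSC. It was the 1 lower gene of 4 Rhox genes tested, of which 0 were higher. Among 17 Prame, Xlr, Mage and Trap1a genes tested, of 42 in the files, 5 were lower and 0 higher. Xlr3a, Xlr5a and Xlr5b were not called. Xlr4a stood at 5.84, 5.25 and 10.7 CPM in Stage2 and 0.445, 1.71 and 1.27 CPM in iPSC and Xlr3b at 7.67, 8.51 and 7.03 CPM in Stage2 and 0.711, 2.06 and 2.46 CPM in iPSC. Every iPSC library was below every Stage2 library in Rhox5, Xlr4a and Xlr3b. Xlr4a and Xlr3b passed the filter on low counts through Stage2, so they add nothing to the count of lower members. These differences had Benjamini-Hochberg adjusted p in edgeR of 0.00822 for Rhox5, 0.000145 for Xlr4a and 0.000128 for Xlr3b. On the log2 scale the changes were -2.13 ± 0.35 for Rhox5, -2.58 ± 0.39 for Xlr4a and -2.08 ± 0.32 for Xlr3b (± SE). Xlr copies are similar to each other, so their reads may be shared among them.

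**Figure D5:**
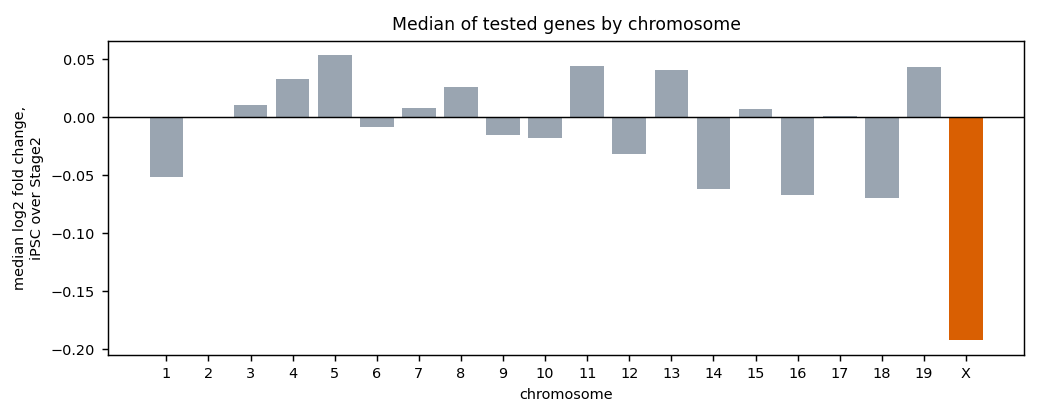
Median log2 fold change, iPSC over Stage2 (y axis), of the genes tested on each chromosome (x axis); bars are medians and no error is drawn. The X chromosome stands at -0.19, below every other chromosome, which lie between -0.07 and 0.05.

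The remaining leading falls joined no list. Slfn9, a gene of the Schlafen family, stood at 36.2, 33.8 and 30.1 CPM in Stage2 and 1.33, 3.62 and 3.18 CPM in iPSC. Slc39a8, a zinc and manganese transporter, stood at 15.6, 14.1 and 14.9 CPM in Stage2 and 1.87, 1.56 and 1.64 CPM in iPSC. Arntl2, a clock factor, averaged 7.77 ± 1.99 CPM in Stage2 and 0.879 ± 0.474 CPM in iPSC, Gdpd3, a lysophospholipase, 6.57 ± 0.861 CPM in Stage2 and 0.709 ± 0.391 CPM in iPSC, and the testis kinase gene Smok4a 8.51 ± 2.04 CPM in Stage2 and 0.651 ± 0.528 CPM in iPSC. All lay close to their detection limit in at least 1 iPSC library except Slfn9 and Slc39a8. The log2 fold change of Smok4a was -3.57 ± 0.43, and -4.31 without iPSC replicate 2. Over the 15 leading falls, Benjamini-Hochberg adjusted p in edgeR ran from 6.77e-10 to 4.2e-05. The rest of the leading rises were Olfml2b, a matrix protein, at 1.14 ± 0.30 CPM in Stage2 and 5.08 ± 0.341 CPM in iPSC, Fam19a4, a secreted peptide, at 1.28 ± 0.418 CPM in Stage2 and 5.71 ± 1.25 CPM in iPSC, and Thrsp, a regulator of lipid synthesis, at 0.757, 2.07 and 0.148 CPM in Stage2 and 6.76, 3.48 and 7.1 CPM in iPSC. Over the 15 leading rises adjusted p by the same edgeR test ran from 2.68e-08 to 0.00734, the last for Thrsp, which was not called without Stage2 replicate 1 (0.0556). Its log2 fold change was 2.57 ± 0.59, and 3.84 without Stage2 replicate 2.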

How the data were processed

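RNA was extracted with a miRNeasy Mini kit and libraries followed standard Illumina protocols, per the labels. The deposited values are raw counts of reads per gene, made by the authors with TopHat2 2.0.9, Bowtie2 2.2.6, SAMtools 0.1.19 and HTSeq 0.5.4p3 on mm10, per the submitters' processing notes, which also name DESeq2 1.12.4. The strand setting and annotation version are not given in the sources used here. The 5 HTSeq summary categories and 45 Y-linked genes of 23420 were left out. Gene counts were 9257487 to 14074413 per library.

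Libraries were grouped by title. Genes passing edgeR's filterByExpr (13725) were fitted with edgeR 4.0.16 (TMM, robust quasi-likelihood, R 4.3.3) on the 6 libraries, and p-values were adjusted by Benjamini-Hochberg over all of them. CPM use gene totals without TMM factors. Named genes were the 15 largest called changes in each direction whose higher group averaged at least 5 CPM and whose groups did not overlap, leaving out clone, predicted and small RNA symbols, besides list members. Counts over lists cover every tested member, and some single members are not reported here. Members and lists were chosen with earlier results of these data known. Alternatives were other scalings and filters, DESeq2 1.42.0, a fold threshold of 2, all 12 libraries, a replicate block, leaving out each library and, chosen after seeing the data, an exon length offset (GENCODE M21). On simulated data with 200 changed genes the test recovered 75% of 2-fold and 97% of 4-fold changes, and 6.01% of 183 called genes were unchanged. The simulation had far fewer changed genes than the 36.0% called here and no trend with length. Its rates therefore need not carry over to these calls.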

Additional observations from a re-analysis of the deposited data

How the results depend on the processing

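The counts of 2301 genes higher and 2641 lower in iPSC became 1357 and 1313 in the fit of all 12 libraries. They became 61 and 132 when tested against a fold of 2. Leaving out 1 library at a time gave 1828 to 2130 genes higher and 2073 to 2286 lower. Deviations of same-numbered replicates had r of 0.0616, -0.0142 and 0.210, and only those numbered 3 correlated best with their own number. On the second principal component replicates 1 lay at 23.8 (Stage2) and 15.05 (iPSC) and replicates 3 at -25.0 and -21.4. The labels give the numbers no shared origin, and not every pair passed an r of 0.1, so the samples were not taken as paired. The replicate block gave 2424 higher and 2754 lower, and called Tdgf1 higher (edgeR adjusted p = 0.00131), Myc lower (0.0474) and Ifit3 higher (0.0477). With the exon length offset 2024 were higher and 2022 lower.

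Signs turned for the following genes, of which Meg3, Kcnq1ot1 and Lifr were called lower and the others were not called. For Pou5f1 the log2 fold change was -0.027 with library totals and -0.20 with the exon length offset, and ran from -0.033 to 0.073 without single libraries. That range was -0.50 to 0.25 for Dux and -0.054 to 0.23 for Stk31. The offset gave -0.076 for Epcam, 0.12 for Dnmt1, 0.13 for Mki67, 0.10 for Meg3, 0.16 for Kcnq1ot1 and 0.0051 for Lifr. The cause was not tested. For the 30 leading genes, 1 of 419 alternative values lost its call. They were chosen from these same libraries as the largest called changes without overlap, so this does not measure how well calls hold. Of 247 genes followed through the settings, called or not, 57 were weaker in the fit of all 12 libraries. Genes near 3 counts per library, such as Fgf5 and Cer1 in iPSC and the Zscan4 genes in Stage2, are limited by depth.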

Other observations

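Gene groups outside the comparisons above moved in both directions, as did all genes tested, with 16.8% higher and 19.2% lower. Of 14 heat shock chaperones, 5 were higher in iPSC and 3 were lower (2 higher in the fit of all 12 libraries, 3 higher without Stage2 replicate 3 or iPSC replicate 2, 1 lower without iPSC replicate 1 or 3). The paired cytosolic Hsp90 genes, which fold signalling proteins, differed in direction: Hsp90aa1 stood at 9415, 10164 and 9544 CPM in Stage2 and 12382, 13021 and 12015 CPM in iPSC (edgeR quasi-likelihood, Benjamini-Hochberg adjusted p = 0.00104). Hsp90ab1 stood at 4927, 3959 and 3148 CPM in Stage2 and 2427, 3119.9 and 2589 CPM in iPSC, with Stage2 replicate 1 the highest. Its call (edgeR adjusted p = 0.042) was lost without Stage2 replicate 1 (0.0775) or 2 (0.104), without iPSC replicate 1 (0.162) or 3 (0.114) and in the fit of all 12 libraries (0.0585).

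Among 24 cholesterol synthesis genes 5 were lower and 2 higher (8 lower without iPSC replicate 3, 3 lower in the fit of all 12 libraries). The share called lower is near that of all genes tested, 19.2%. Hmgcs1, an early enzyme of the pathway, stood at 387, 449 and 427 CPM in Stage2 and 252, 264 and 242 CPM in iPSC. The groups did not overlap, and Benjamini-Hochberg adjusted p in edgeR was 2.5e-05 for Hmgcs1. The structural RNAs of the ribonucleases P and MRP, Rpph1 and Rmrp, stood at 253, 293 and 194 CPM in Stage2 and 1187, 692 and 521 CPM in iPSC for Rpph1 and 1819, 2434 and 1415 CPM in Stage2 and 6601, 4229.7 and 3348 CPM in iPSC for Rmrp, with Benjamini-Hochberg adjusted p of 0.0278 and 0.042 in edgeR. Neither call held without Stage2 replicate 1 (edgeR adjusted p = 0.0967 and 0.133) or 3 (0.0867 and 0.0981) or iPSC replicate 2 (0.0708 and 0.103), or with no filter on low counts (0.0561 and 0.0859).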
